A study of Schizosaccharomyces pombe with 3 samples.

Results

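Acetylation of lysine 9 on histone H3 (H3K9ac) was described here in the wild-type strain of the fission yeast Schizosaccharomyces pombe, from the single chromatin immunoprecipitation (ChIP) array labelled wild type, which is 1 of the 3 samples of the series. Its members were all 43993 probes that the scanner file does not mark as controls, of which 43929 remained after spots with outlier flags were left out. The other 2 arrays hold strains mutant for alp13 and asf1 and enter no comparison here. The wild-type cells grew exponentially in rich YEA medium at 30 °C and were fixed at 18 °C in 3% paraformaldehyde. Their DNA was sheared to 500 to 1000 bp and precipitated with an antibody against H3K9ac from Upstate. The labels give no further genotype or mating type for this strain. The measure is the log2 ratio of Cy5 (precipitated DNA) to Cy3 (whole-cell extract DNA), centred on the median of the array, so that a value of 1 means 2-fold more precipitated DNA relative to extract than at the median probe. There was 1 array and no replicate, so no value below carries a replicate error or a test, and every comparison compares places on this array.

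H3K9ac is placed by acetyltransferases such as Gcn5, the catalytic subunit of SAGA, and removed by histone deacetylases such as Clr6. In yeasts the mark is known from the nucleosomes around active promoters. Fission yeast silences its centromeric repeats, mating-type cassettes and subtelomeres in heterochromatin, where H3 is deacetylated and methylated at the same lysine 9. The series holds no array of total H3, so less H3 and less acetylation of H3 cannot be told apart in any value below.

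The probes are 60 bp long and lie every 50 bp. They tile chromosome II from array base 1000011 to 3049820, while its reference sequence is 4539804 bp long. Smaller stretches lie at the right end of chromosome II, at the left end of chromosome III and on an extra contig of 41210 bp. Genes outside the placed stretches have no value here. After placement on the ASM294v3 reference, 42908 kept probes had a position, 39695 of them in the euchromatin of chromosome II, which held most of the 893 protein-coding genes measured by at least 3 probes (median 34 probes per gene). The median intensity was 1811 in Cy3 and 1808 in Cy5. In all, 93 probes were not well above background in at least 1 channel. The sequence of the extra contig is not in the sources used here, so it was matched to chromosome II by Cy3 signal alone. By this match its first 12 kb repeat a stretch of chromosome II. The SD of the difference over the 239 pairs of near-duplicate probes there was 0.18, which puts the SD of a single probe at 0.13 on the log2 scale. The other 2 repeated stretches of the contig gave larger values for the SD of a single probe, 0.28 over 220 pairs and 0.18 over 84 pairs. The strain label could not be checked against the data, because alp13 and asf1 have no placed probes, and the wild-type column of the authors' deposited value table followed this array only at r = 0.23. In the same table the alp13 column followed this array at r = 0.65 and the asf1 column at r = -0.53, so which hybridisation each column of that table holds is in doubt, and the table gives no check of the label.

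The promoter sequences of 4 genes are shown first, because the results turn on the contrast between what lies upstream of a gene and what lies over it. SPBP4H10.12, with a role in the insertion of tail-anchored proteins into the endoplasmic reticulum, had the highest mean of all genes measured. The gene mrpl39, for a mitochondrial ribosomal protein, was also among the 8 highest, but2 was among the 8 lowest, and rpl8, for a cytosolic ribosomal protein, had the largest excess of its upstream value over its body among ribosomal protein genes. Each line gives the 250 bases before the annotated start, 5′ to 3′ on the strand of the gene, from the RefSeq sequence of ASM294v3. They come from chrII:2895467-2895716 on the plus strand for SPBP4H10.12, from chrII:2701752-2702001 on the minus strand for mrpl39, from chrII:1269065-1269314 on the plus strand for but2 and from chrII:2045225-2045474 on the plus strand for rpl8. Capitals mark the letters TATAAA, runs of at least 7 A, or the HomolD core CAGTCAC, each on either strand.
SPBP4H10.12: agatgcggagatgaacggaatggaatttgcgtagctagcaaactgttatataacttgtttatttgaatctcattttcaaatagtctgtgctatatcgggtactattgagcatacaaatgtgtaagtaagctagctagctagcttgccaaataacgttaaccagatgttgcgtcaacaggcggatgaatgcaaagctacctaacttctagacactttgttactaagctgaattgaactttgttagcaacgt
mrpl39: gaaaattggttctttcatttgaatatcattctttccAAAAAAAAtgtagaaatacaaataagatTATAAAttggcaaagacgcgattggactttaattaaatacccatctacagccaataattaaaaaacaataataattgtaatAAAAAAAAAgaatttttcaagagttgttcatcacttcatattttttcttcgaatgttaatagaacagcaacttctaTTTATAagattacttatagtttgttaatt
but2: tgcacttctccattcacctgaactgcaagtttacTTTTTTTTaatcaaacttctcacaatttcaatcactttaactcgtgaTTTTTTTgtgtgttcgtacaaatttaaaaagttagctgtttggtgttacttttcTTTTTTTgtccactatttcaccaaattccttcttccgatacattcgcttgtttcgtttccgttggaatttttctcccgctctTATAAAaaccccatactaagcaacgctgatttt
rpl8: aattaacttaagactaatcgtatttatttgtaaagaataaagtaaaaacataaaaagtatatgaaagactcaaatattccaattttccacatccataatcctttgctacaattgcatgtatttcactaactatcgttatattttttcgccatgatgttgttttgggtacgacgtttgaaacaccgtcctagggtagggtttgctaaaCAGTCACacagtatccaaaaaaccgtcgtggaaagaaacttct

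Along genes, H3K9ac lay highest before the start and fell through the body. The median log2 ratio was 0.60 over the 5165 probes within 500 bp upstream of a protein-coding gene, 0.26 over the first part of genes (of 3 parts of equal length), -0.25 over the middle part and -0.22 over the last part. Within 500 bp downstream it was 0.02, and where genes overlapped each other it was -0.10. At 0.82, the highest class was the 2003 probes more than 500 bp from any protein-coding gene, whether or not a non-coding gene lay there. Of these, 42.4% lay at least 2-fold above the array median, against 29.2% upstream and 5.56% in the middle part of genes. The classes overlapped widely, since the quartiles ran from 0.02 to 1.08 upstream and from -0.74 to 0.28 in the middle part. The median of the middle part minus that upstream was -0.85, a difference between places on 1 array for which no test was run. These classes also differ in base composition: the median GC content under the probes was 31.7% upstream and 40% in the middle part, and Cy3 was dimmer upstream by -0.76 and brighter in the middle part by 0.47 on the log2 scale. In Cy5 alone the order turned over, with -0.26 upstream and 0.23 in the middle part. Correcting the log ratio for GC left the difference at -0.71. The class more than 500 bp from any protein-coding gene had the dimmest Cy3, at -0.99. It stayed above upstream after GC correction, at 0.74 against 0.51, but not after normexp background correction, at 0.41 against 0.43. In Cy5 alone it read -0.52, below upstream.

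**Figure D1:**
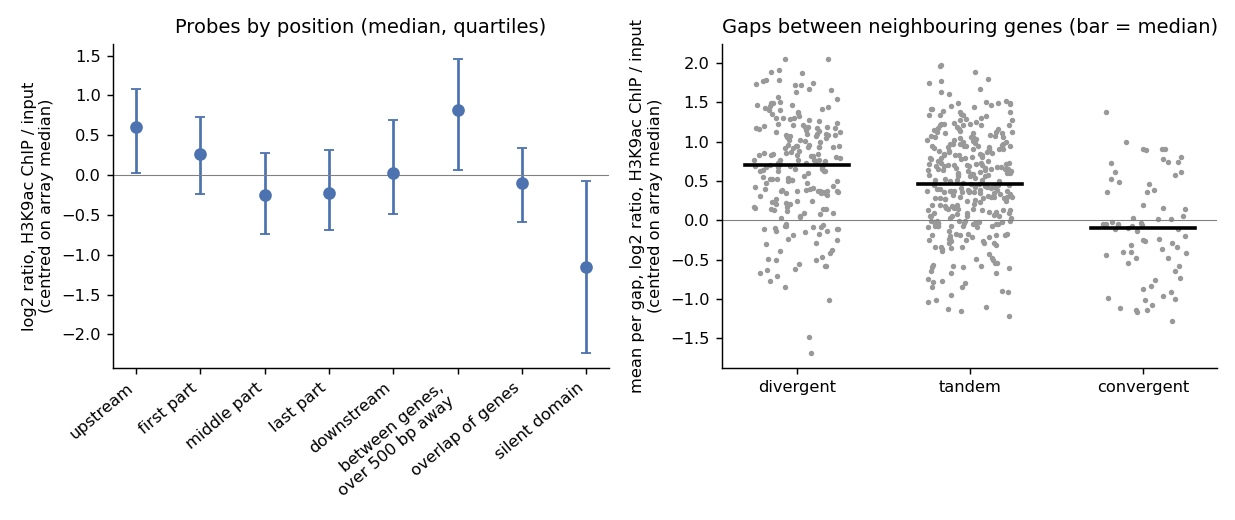
Left, median log2 ratio of probes by position, with the quartiles as bars. The class silent domain also holds the left end of chromosome III, which read 0.38 over the rDNA and 0.28 past it. Right, the mean log2 ratio of each gap between neighbouring protein-coding genes, by the orientation of the genes, with the median as a bar (0.70 divergent, 0.46 tandem, -0.10 convergent). Probes over 500 bp from any protein-coding gene read highest in this log ratio, though not after normexp background correction or in Cy5 alone.

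Around gene starts the signal formed a broad plateau and not a narrow peak. Taken in 50-bp steps, the median over genes was highest at -200 bp from the annotated start, at 0.59, and stayed within 0.05 of that value from -350 to 50 bp. It was 0.33 at -1000 bp, 0.56 at the start itself, 0.28 at 500 bp, and first lay below the array median at 900 bp inside the gene. Genes of different length differed less at the start than inside. At the start the median was 0.60 in genes under 1 kb, 0.57 in those of 1 to 2 kb, 0.55 in those of 2 to 4 kb and 0.44 in those over 4 kb. At 1500 bp inside, it was -0.03 in genes of 1 to 2 kb, -0.40 in those of 2 to 4 kb and -0.67 in those over 4 kb. At 2500 bp the longest group had reached -0.85. Anchored on the coding start in place of the gene start, the highest step was at -250 bp, with a median of 0.58. Fragments of 500 to 1000 bp limit how finely a position can be read: neighbouring probes 50 bp apart correlated at r = 0.97, those 500 bp apart at 0.80, those 1000 bp apart at 0.54 and those 4000 bp apart at 0.06, as a description over probes that share fragments.

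**Figure D2:**
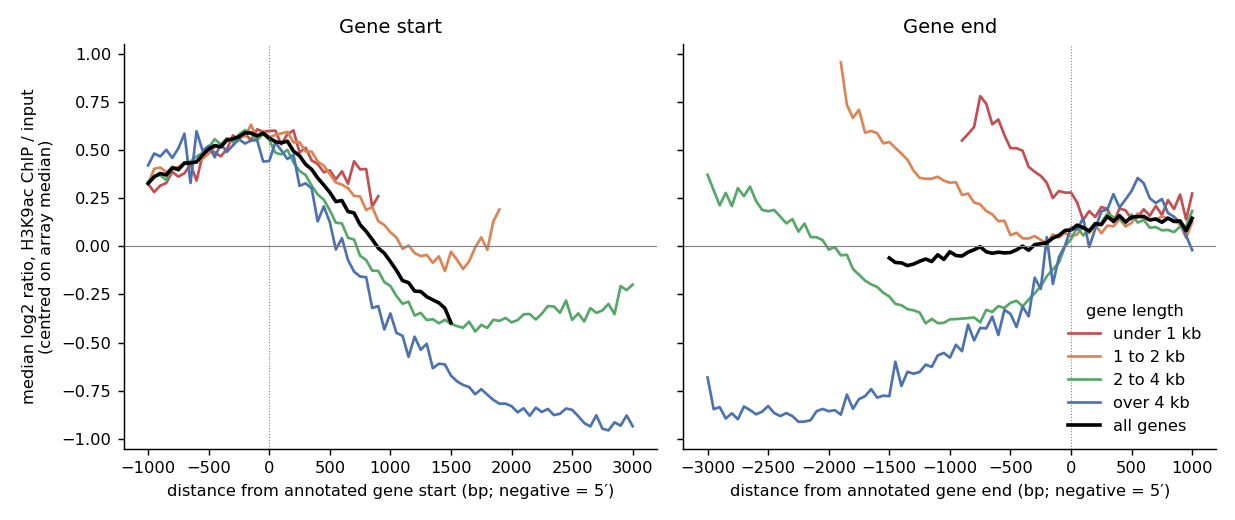
Median log2 ratio in 50-bp steps of distance from the annotated gene start (left) and gene end (right), for all genes (black) and by gene length (colours). At the start the groups lie between 0.44 (over 4 kb) and 0.60 (under 1 kb), and inside the gene the longer groups read lower.

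Gene ends showed no comparable feature. The median over all genes was 0.08 at the annotated end, -0.03 at 500 bp before it and 0.15 at 500 bp past it. Split by length, the approach differed: at 500 bp before the end the median was 0.51 in genes under 1 kb and -0.35 in those over 4 kb, and at the end itself it was 0.28 in genes under 1 kb, 0.05 in those of 1 to 2 kb, 0.04 in those of 2 to 4 kb and 0.10 in those over 4 kb. In the 128 genes over 3000 bp with probes in all of these stretches, the median was 0.62 upstream, 0.49 in the first 500 bp, -0.64 in the interior more than 1000 bp from both ends and -0.10 in the last 500 bp. The first 500 bp lay above the interior in 121 of the 128 genes, and the last 500 bp did so in 95. In 23 of them the interior lay at least 2-fold below the array median. The gene rpb1, which encodes the largest subunit of RNA polymerase II, had the lowest interior at -1.60, with 0.19 upstream and 0.21 in its first 500 bp. For tra1, the 11069-bp gene of a SAGA subunit, the interior read -1.08. The highest interior was that of wdr7 at 1.02, next to 1.32 upstream of it, so long genes were not low throughout without exception.

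The gaps between genes followed the orientation of their neighbours. The median of gap means was 0.70 in 208 divergent gaps, which hold the promoters of both neighbours, 0.46 in 312 tandem gaps and -0.10 in 71 convergent gaps, which hold no promoter of a protein-coding gene. Of all 591 gaps, 270 (45.7%) lay at least 1.5-fold above the array median and 46 (7.78%) at least 1.5-fold below. By orientation, 56.3% of divergent, 44.9% of tandem and 18.3% of convergent gaps lay above, and 4.33%, 6.73% and 22.5% lay below. Width differed too, with medians of 827, 322 and 208 bp in the same order. Among gaps of up to 250 bp the order held, at 0.54 for 34 divergent, 0.51 for 112 tandem and -0.11 for 40 convergent gaps, with divergent and tandem gaps close to each other. Divergent gaps of over 1000 and up to 2000 bp had the highest median of any group of 10 or more gaps, at 0.91.

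Individual gaps departed from this order. The only convergent gap over 2000 bp, between mat1-Mc, the regulator of M mating type, and SPBC23G7.10C, read 1.37. At the other extreme, the divergent gap between mrpl35 and atf21, which encodes a bZIP transcription factor of the Atf/CREB family, was 2516 bp wide and read -1.68 over 50 probes, all of them below the array median (highest -0.98). The divergent gap beside hsp16, the small heat shock protein gene, read -1.48 over 16 probes. These were the lowest of the gaps with at least 10 probes. Upstream of gpx1, for glutathione peroxidase, the 500-bp mean was -1.33. These promoters of stress genes were picked after their values were seen. Not every gene of the stress list had a low upstream value: the median of the list was 0.60, and mas5, for a chaperone of the Hsp40 type, read 1.85.

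Runs of high signal were short and lay near gene starts. Runs of at least 3 probes whose running median over 5 probes reached 1 (2-fold) numbered 266 outside the silent domains, with a median length of 760 bp and a longest of 4510 bp. The summits lay a median of 284 bp from the nearest gene start, and 70.7% of them lay within 500 bp of one, against 39.0% of all euchromatic probes. Summits in the class upstream made up 30.5% (13.0% of probes), those in the first part 30.5% (26.1% of probes), and those between genes over 500 bp away 16.2% (5.05% of probes). The share in the middle part was 9.02%, against 24.2% of probes. No protein-coding gene lay under 50 of these regions.

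Of the 6 highest regions, 5 had their summit between genes and over 500 bp from any protein-coding gene. This ranking is by the main log ratio. Probes of that class had the dimmest Cy3, at -0.99, and did not read above upstream after normexp background correction or in Cy5 alone. The highest, at 2.75, lay in the gap beyond mat1-Mc, on chromosome II at reference bases 2115611 to 2117170. Next came the 4510-bp region between isp4 and rpl26, at reference bases 1553511 to 1558020, whose summit of 2.63 lay 2896 bp from the nearest gene start. The region at 1266061 to 1267920, in the 5710-bp gap between rtn1 and but2, reached 2.52. The regions upstream of gyp10, for a GTPase-activating protein, and of wis1, for the MAP kinase kinase of the stress pathway, reached 2.48 and 2.42. Each of these 5 regions overlapped at least 1 annotated long non-coding RNA, as did most of the other high regions, so this does not set them apart. The remaining region, with a summit of 2.42, lay 79 bp from the start of swd2, for a subunit of the Set1 complex, across the divergent starts of swd2 and wbp4.

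Runs of low signal lay mostly away from gene starts. Outside the silent domains 141 runs stayed at or below -1, with a median length of 910 bp. Their lowest points fell in the middle part of genes in 41.8%, against 24.2% of euchromatic probes, and in the last part in 26.2%, near its share of 21.8% of probes. Within 500 bp of a gene start lay 12.8%, against 39.0% of probes. The longest, at 4710 bp, covered most of bgs1, which encodes a glucan synthase of the septum, and fell to -1.58. It was followed by a run of 4660 bp over rpc1, for the largest subunit of RNA polymerase III. Only 8 low runs covered no protein-coding gene. The deepest low run in euchromatin reached -2.20 between mrpl35 and atf21.

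Gene means repeated the dependence on length. Of the 893 genes, 206 (23.1%) had a mean at least 1.5-fold above the array median and 121 (13.5%) at least 1.5-fold below. The median of gene means was 0.39 in the 143 genes under 1 kb, 0.25 in those of 1 to 2 kb, -0.11 in those of 2 to 4 kb and -0.48 in the 49 over 4 kb. Of genes under 1 kb, 44.8% were above and 7.69% below, whereas of those over 4 kb 2.04% were above and 40.8% below. The upstream means of the same groups lay between 0.55 and 0.58. Across 872 genes outside the silent domains, Spearman's rho between length and gene mean was -0.41, that between upstream mean and gene mean was 0.51, and that between length and upstream mean was 0.02. Genes are not independent replicates here, and a short gene and its upstream window share fragments.

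**Figure D3:**
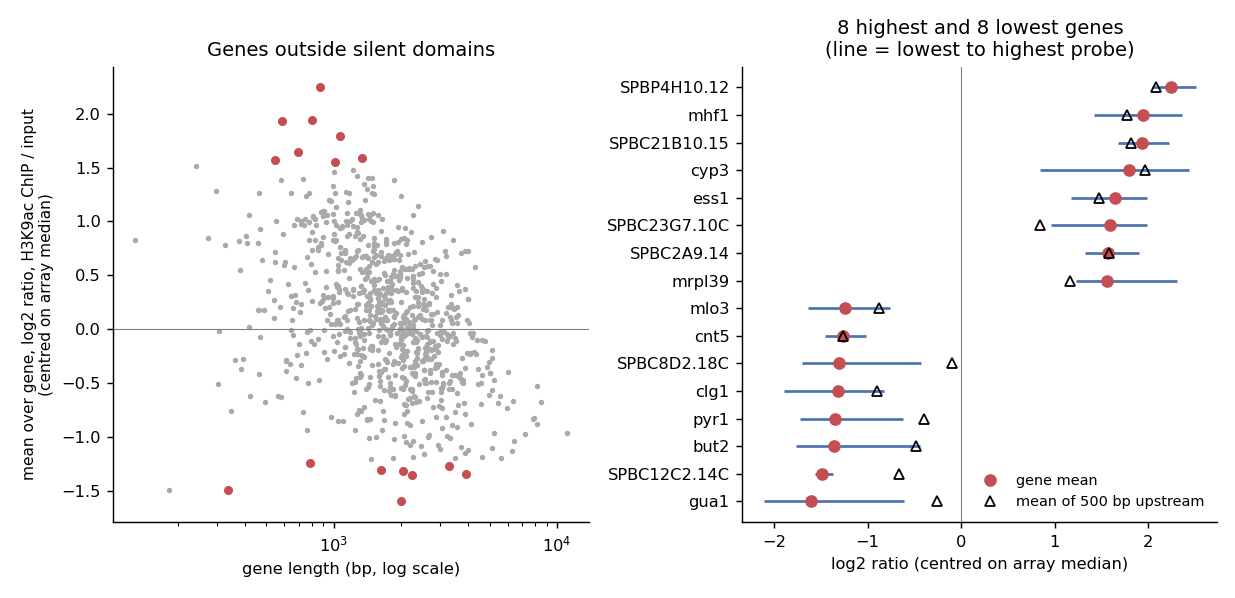
Left, the mean log2 ratio of each gene outside the silent domains against its length (log axis), with the 8 highest and 8 lowest genes of at least 5 probes in red. Right, those 16 genes with their mean, the range of their probes and the mean of the 500 bp upstream. No gene over 4 kb is among the 8 highest, and all 8 of the lowest have upstream means below 0.

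The 8 highest genes were short, from 544 to 1333 bp, and were high upstream as well. In SPBP4H10.12 (SPBP4H10.12, chromosome II, 2895717 to 2896587) the 17 probes ran from 2.04 to 2.51, with a mean of 2.25 and an SD across probes of 0.12, and the upstream mean was 2.09. The gene mhf1 (2996345 to 2997147), whose human counterpart is a histone-fold protein of the centromere and of DNA repair, averaged 1.94. SPBC21B10.15, an uncharacterized gene, averaged 1.93, and cyp3, for a cyclophilin, averaged 1.79 with probes from 0.84 to 2.43. The remaining genes of this group were ess1 at 1.64, SPBC23G7.10C, annotated as a flavin oxidoreductase, at 1.59, SPBC2A9.14 at 1.57 and mrpl39 at 1.55. The lowest upstream mean among them was 0.84, upstream of SPBC23G7.10C. After normexp background correction these 8 genes ran from 0.98 in SPBC21B10.15 to 2.85 in SPBP4H10.12, with mrpl39 at 0.99.

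The lowest gene was gua1 (SPBC2F12.14C, chromosome II, 1706942 to 1708944), which encodes IMP dehydrogenase of guanine nucleotide synthesis. Its 40 probes ran from -2.11 to -0.62, with a mean of -1.60. SPBC12C2.14C, an uncharacterized gene of 336 bp, averaged -1.49, but2 averaged -1.36 and pyr1, for pyruvate carboxylase, averaged -1.34. They were followed by clg1, for a cyclin, at -1.32, SPBC8D2.18C, for adenosylhomocysteinase, at -1.31, cnt5, for a centaurin, at -1.27 and mlo3, for an RNA-binding protein, at -1.24. Upstream of gua1 the mean was -0.25, so its promoter lay within 2-fold of the array median. Upstream of cnt5 it was -1.26, level with the gene, and all 66 probes of cnt5 lay between -1.46 and -1.01. Also among the low genes were act1 (actin) at -1.20 and rpb1 at -1.20. After normexp background correction the 8 lowest genes ran from -1.91 in pyr1 to -0.91 in SPBC12C2.14C. For act1 and rpb1, picked after their values were seen, the upstream means were -0.21 and 0.19.

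Gene lists were set beside all genes, whose median was 0.08 over the gene and 0.55 upstream, and of which 23.1% were called above and 13.5% below at 1.5-fold. The lists are small and hold only genes that the tiled stretches cover, so none is a complete set for the genome. Their counts are given as descriptions beside these shares. The 25 cytosolic ribosomal protein genes had a median of -0.07, with 4 above and 4 below, near the shares of all genes, although at 637 bp their median length was well under the 1715 bp of all genes. Upstream of them the median was 0.39. The highest was rpl26 at 0.80, and the lowest was rpl8 at -0.82, although 1.25 was measured upstream of rpl8. The 9 mitochondrial ribosomal protein genes had a median of 0.35, from -0.79 in mrpl35 to 1.55 in mrpl39, with 3 above and 1 below. Of 4 glycolysis genes 1 was called, pfk1 (phosphofructokinase) at -0.99. The others ran from 0.00 in fba1 (aldolase) to 0.28 in tdh1 (glyceraldehyde-3-phosphate dehydrogenase). The 3 histone genes measured were not called over their bodies, and their upstream values were all below 0, at -1.25 for pht1 (the variant H2A.Z), -0.21 for hht2 (H3) and -0.33 for hhf2 (H4). The divergent gap upstream of pht1 is shared with shy1 and also holds the tRNA gene SPBTRNATHR.06, at -1.21.

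The lists of chromatin regulators held both high and low bodies. In the Clr6 deacetylase complex the scaffold genes pst1 and pst3, over 5 kb long, read -0.56 and -0.62 with 0.81 and 0.40 upstream, and png2 read 0.47 with 0.89 upstream. The 4 genes of the silencing list had a median upstream value of 1.49 and none was called over the body. For clr1, a subunit of the SHREC silencing complex, the values were 1.93 upstream and 0.05 over the gene, and for tas3 1.29 and 0.56. In SAGA, 2 of 4 genes were above and 1 below. There sgf29 read 1.11 over the gene and 0.01 upstream, ngg1 read 0.68 with 1.58 upstream, and tra1 read -0.97 with 0.02 upstream. Of 12 genes for amino acid and nucleotide synthesis 3 were above, near the 23.1% of all genes, and none below, and their upstream median was 0.94. Of 8 mating and nitrogen starvation genes 2 were above and none below.

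The other lists had medians between -0.60 and 0.17 over the gene. Splicing factors had 4 of 17 above, again near the 23.1% of all genes, and 1 below, cell cycle genes 2 of 19 above and none below, and the 14 meiosis genes 2 above and 2 below. The meiosis genes had a low upstream median of -0.08. The 9 mug genes, named for upregulation in meiosis, had 1 above and 1 below. Of 8 stress genes 1 was above and 2 below, the lowest being sks2 (an Hsp70-type chaperone) at -1.05. Of 7 genes of sterol and lipid synthesis none was above and 2 were below. Translation factors (1 above and 2 below of 6), vacuolar sorting genes (1 above and none below of 6) and the 2 proteasome genes (none above and 1 below) complete the 18 lists.

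Promoter letters were compared between high and low promoters. The 871 promoters with at least 5 upstream probes were split into 5 groups of equal size by their upstream mean, which ran from -1.90 to -0.07 in the lowest and from 1.11 to 2.13 in the highest. TATAAA on either strand was held by 42.6% of all promoters, 48.3% of the highest group and 37.7% of the lowest. A run of 7 A on either strand was held by 32.0% of all, 33.3% of the highest and 24.6% of the lowest group. The shares of GTAAACA, the FLEX core bound by forkhead factors, were 15.8%, 12.1% and 19.4%, those of ACGCGT, the MCB box of the cell cycle, were 2.76%, 1.72% and 5.14%, and those of TGACGT, part of the site of Atf1, were 4.71%, 5.17% and 5.71%. Those of ACCCTAC, part of the HomolE box, were 2.64%, 4.02% and 2.86%, and those of AACCCT, the histone box, were 9.07%, 7.47% and 9.71%. The HomolD core CAGTCAC, the TATA analogue of ribosomal protein promoters, stood in 88.0% of the 25 ribosomal protein promoters and in 4.36% of all, as in the rpl8 sequence above, and in 1.72% of the highest and 4% of the lowest group. The median GC content was 31% in the highest group and 33.2% in the lowest.

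The tRNA genes dispersed in euchromatin, which RNA polymerase III transcribes, mostly sat in dips. At these 14 genes, over the gene and 100 bp on each side, the median was -0.70, against -0.05 in flanks 300 to 1000 bp away. The tRNA gene lay below its flanks in 13 of 14, against 36.9% of intergenic probes treated the same way. The lowest was SPBTRNATHR.06 at -1.21, and the exception was SPBTRNATRP.03, at -0.80 with flanks at -1.21. The highest was imt06, an initiator tRNA gene, at 0.53. The 7 genes for 5S rRNA had a median of -0.47 against -0.24 in their flanks, and 5 of them lay below. The 27 tRNA genes inside centromere 2 read -1.62 against -1.51, with 15 below. The 16 genes annotated as snoRNA read 0.28 against 0.30, with 10 below. The 20 annotated LTRs of Tf retrotransposons, some of which flank the full-length elements, read 0.00 against 0.19, with 13 below. The full-length Tf2-9 and Tf2-10 elements read 0.28 and 0.28 over 79 probes each, of which over 96.2% have the same 60 bases elsewhere in the reference, so these values are shared among copies.

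**Figure D4:**
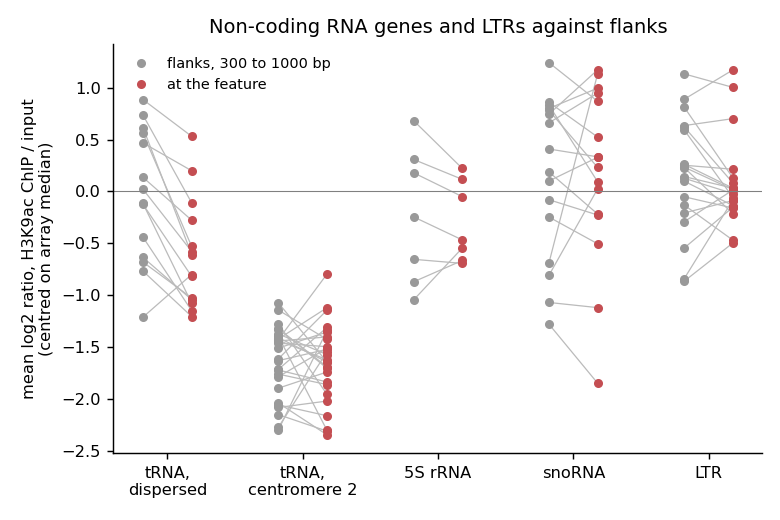
Mean log2 ratio at each tRNA gene, 5S rRNA gene, snoRNA gene and LTR (red) joined to the mean of its flanks 300 to 1000 bp away (grey). The dispersed tRNA genes lie below their flanks in 13 of 14 cases.

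In 3 silent domains the ratio lay more than 4-fold below the array median. Centromere 2, from the end of rpb1 to the start of yox1, had a median of -2.20 over 1023 probes, with 90.7% of them at least 2-fold below the array median, against 12.3% of all placed probes. The outer arms, which carry the dg and dh repeats, read -2.35 on the left and -2.36 on the right. The central domain, where the H3 variant Cnp1 replaces much of H3, read -2.10. Cy3 had a median of 109 in the central domain, 21 of whose 196 probes were not well above background, against 7966 and 9027 in the arms, so the central value is the least precise of the 3. In the arms 93.7% and 91.2% of probes had their 60 bases elsewhere in the reference, and in the central domain 29.6%. With repeated probes left out, a choice made after the data were seen, centromere 2 read -2.01, a value in which few probes of the arms remain.

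Within centromere 2 the inner clusters of tRNA genes stood above both sides. From the first to the last of the 3 tRNA genes left of the central domain, spacers included, the median was -1.06 over 19 probes. The 1-kb steps on either side read -2.88 and -2.12. The cluster of 3 on its right read -0.99 in the same way, between steps of -2.23 and -2.93. Single genes of these clusters, as means with 100 bp on each side, were lower, at -2.02, -1.34 and -1.84 on the left. On the right they read -1.86, -1.55 and -2.16. The middle gene of each cluster stood above its flanks, at -1.34 against -2.30 and -1.55 against -2.27. The others differed from their flanks by -0.12 to 0.06, but their windows reach past the cluster. Means of genes and medians of spans also differ as measures, so these values do not separate the tRNA genes from the spacers. Of the probes in the inner clusters, 100% on the left and 89.5% on the right have their sequence elsewhere in the reference. Other copies can contribute to these values, so left and right cannot be counted as separate observations of a rise. The outermost clusters, of 12 and 9 tRNA genes, had medians of -1.72 and -1.85, with single probes reaching -0.33 and -0.19, and lay between the lower arms and higher values outside. In these clusters 72.7% and 87.1% of probes have their sequence elsewhere in the reference. On the left the 1-kb medians fell from -0.65 to -2.05 between neighbouring steps. Outside that step they read -0.65 and -0.47, then around -1.65 over the body of rpb1, and they rose to 1.61 past it. On the right they went from -0.88 over -1.86 and -0.74 to -0.34, and first exceeded the array median 3 kb past the centromere, with 0.35.

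The mating-type region was bounded by sharp steps on both sides. On the extra contig the ratio fell from 0.63 to -2.40 within 350 bp on the left and from 0.35 to -2.18 within 300 bp on the right. The 392 probes between had a median of -2.59, against 0.58 on the left of the silent part and 0.55 on its right. That the contig holds this region was inferred from Cy3 signal, which matched chromosome II on both sides of the silent part. Pieces between contig bases 24001 and 36010 matched only scattered offsets. On chromosome II, where the array holds a shorter form of the region between rpp202 and emc3, both steps took 250 bp, from 0.49 to -2.11 and from 0.48 to -2.09. Inside this silent part, the stretch of 1323 bp that contains mat3-Mc and mat3-Mi read 0.71 over 25 probes, while the rest read -2.69 over 125 probes. The median over the whole gap from rpp202 to emc3, 197 probes, was -2.33, and it was -0.75 after normexp background correction of the median signals, which put the silent part of the contig at -1.95. The same 1323 bases stand at mat1, where they read 0.71 over 26 probes. Both mat1-Mc and mat3-Mc are identical over their 546 bp, so probes for the expressed mat1 cassette and the silent mat3 cassette cannot be told apart, and the value at mat3 is no measure of that cassette.

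**Figure D5:**
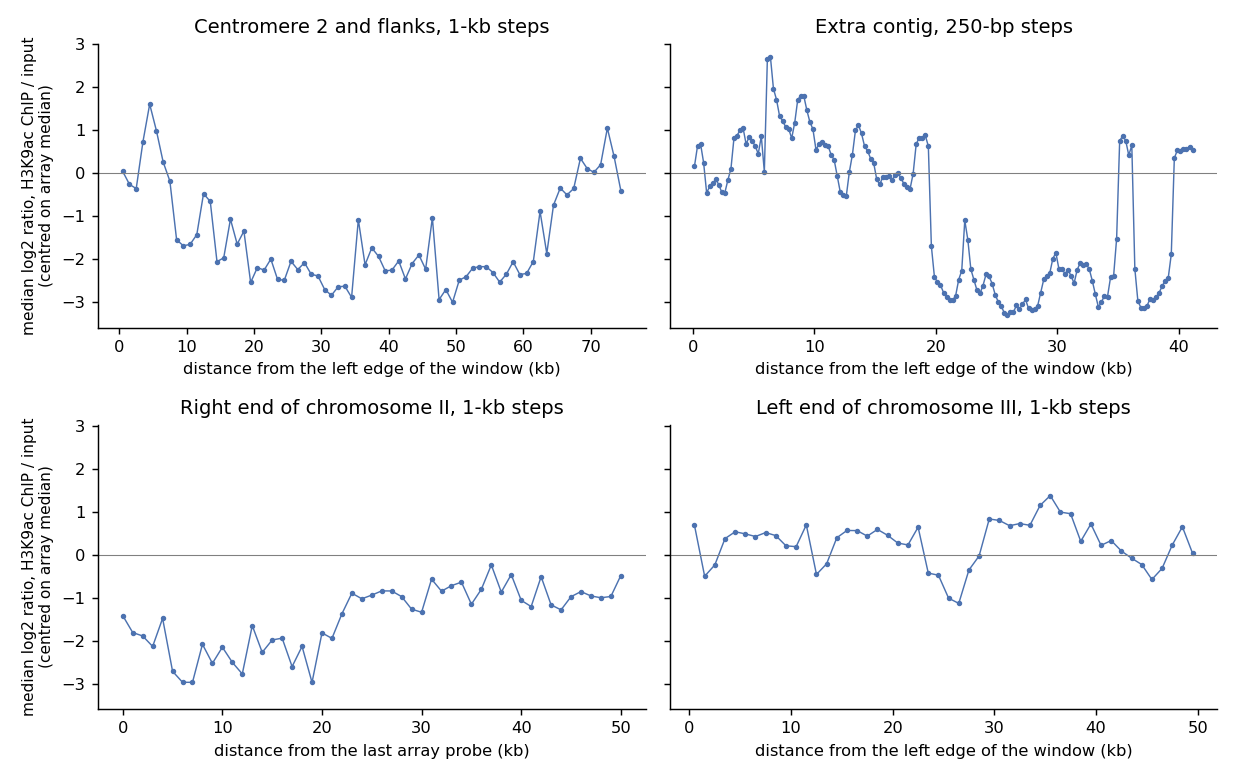
Median log2 ratio along centromere 2 and its flanks, the extra contig, the right end of chromosome II and the left end of chromosome III, against distance in kb. Centromere 2 rises at the inner tRNA clusters, the contig falls within 350 bp, and the chromosome II end falls in 2 levels. Most probes of the inner tRNA clusters have their sequence elsewhere in the reference.

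The right end of chromosome II had 2 levels. Over the outermost 20 kb the median was -2.29 and over the next 30 kb it was -0.93. The helicase gene tlh2 in the outer part read -2.44 over 120 probes. The 10 genes of the 30-kb part ran from -1.15 in SPBPB2B2.19C to -0.20 in SPBPB2B2.18. At the inner edge gal1, for galactokinase, which the array covers in part, read -0.47. Of the probes in the outer and inner parts, 69.3% and 85.8% have their 60 bases elsewhere in the reference, so other copies can contribute to these values.

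The left end of chromosome III did not share this. The rDNA repeats at its end read 0.38 over 458 probes, all of whose sequences are repeated, and none of them lay 2-fold below the array median. Past the rDNA the median was 0.28. This stretch is the least firmly placed, since only 1 of its 2 blocks gave the offset of the whole. No chromosome III value was used in the classes and gaps above, but 7 of its genes are among the 893.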

How the data were processed

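H3K9ac ChIP was measured on 1 two-colour Agilent tiling array of wild-type cells. Per the labels' protocols, random-primed PCR amplified both DNA samples. The deposited intensity of each channel is, per the file headers, background-subtracted and dye-normalised (Agilent Feature Extraction, version 10.7.3.1). The deposited log10 column is the log ratio of Cy5 over Cy3, per the file headers. The authors' deposited value table is a score of unknown scale, centring and direction, with a median of 0.11 in its wild-type column. It was used only to check the labels.

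Log2 ratios were computed from the processed intensities and centred on the array median, with no loess or quantile step. The log2 scale of all values is computed here from the deposited intensities. For the probes no genome build is given in the sources used here. Segments were placed on the RefSeq ASM294v3 reference at the constant offset, within 4000 bp, at which GC content best matched Cy3: -900 bp left of array base 1616911 of chromosome II (r = 0.56, next best 0.38), -1800 bp right of it (0.52 against 0.35) and -1 bp on chromosome III (0.34 against 0.23). Unplaced were 99 probes of chromosome I, 98 of chromosome III and the contig. Gene values rest on these offsets and on the annotated starts and ends of that reference. A gene's value is the mean of probes whose middle lies in it, and an SD across probes is no replicate error.

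Genes were named as the 8 highest and 8 lowest with at least 5 probes outside silent domains, those nearest the 6 highest regions, examples of 18 lists, and elements of silent domains. Members and lists were chosen with earlier results of these data known. Placement, gene means and profiles were tested on simulated data. Tools were Python 3.11.15, numpy 2.4.6, pandas 2.3.3, R 4.3.3 and limma 3.58.1. With 1 array, no test was run and the number of arrays limits the precision.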

Additional observations from a re-analysis of the deposited data

How the results depend on the processing

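No paired analysis was possible because each group has 1 array. Values are compared with the SD of a single probe, 0.13, the lowest of 3 such estimates, and counts with 1.5 times. The cause of each change below was not tested, except where the alternative's construction gives it. The deposited log ratio, the kept outlier spots and probes well above background in both channels moved none of 40 results each, and 300-bp windows moved none of 7. The deposited log ratio is the same Cy5 to Cy3 measure and differed by at most 0.28 at any probe. The kept outlier spots and the background filter concern 64 and 93 of 43993 probes. These 3 alternatives could therefore move little by construction. GC correction moved 1, the middle minus upstream difference, to -0.71. Shifts below 0.13 count as unmoved, although most values are medians over many probes. Among these, GC correction took convergent gaps to -0.22, the inner chromosome II end to -1.05 and downstream to -0.056.

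Centring on intergenic probes subtracts a constant and so lowers every value. It gave 0.24 between genes over 500 bp away, 0.019 upstream and -0.56 downstream, and -0.32, -0.83 and -0.80 along the 3 parts of genes. It gave 36 genes above and 399 below, 84 high and 308 low regions, -2.78 in centromere 2, -2.91 in the mat3 gap (the whole gap between rpp202 and emc3), -2.87 and -1.51 in the outer and inner part of the chromosome II end, -0.20 at the rDNA and -3.17 on the contig. Gaps read 0.12 (divergent), -0.12 (tandem) and -0.68 (convergent), the start profile -0.018 and -0.66 at 1000 bp, and ribosomal protein genes -0.65 with -0.19 upstream. The order of the classes does not depend on the centring.

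Cy5 alone compares different probe sequences and gave -0.26 upstream, 0.23 in the middle part, -0.85 downstream, -0.52 elsewhere and a middle minus upstream difference of 0.49. It gave -0.30, -0.44 and -0.89 for divergent, tandem and convergent gaps, 0.12 at the start and 0.18 at 1000 bp, 427 low regions, -0.22 over and 0.057 upstream of ribosomal protein genes, and -1.47, -2.0, -0.86, -0.47, 0.021 and -2.33 for centromere 2, the mat3 gap, the outer and inner chromosome II end, the rDNA and the contig. SPBC21B10.15 turned to -0.99 and mrpl39 to -0.70.

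Normexp with an offset of 50, run on the median signals, gave 0.98 for SPBC21B10.15, 0.99 for mrpl39, -0.91 for SPBC12C2.14C, 0.43 upstream, -0.38 in the middle part, 0.41 elsewhere, 0.55 for divergent gaps, 245 low regions, -1.92 in centromere 2, -0.75 in the mat3 gap, -2.63 and -1.11 at the chromosome II end and -1.95 on the contig. Calling at 2-fold gave 70 genes above and 35 below, and a region threshold of 1.5 gave 101 high and 23 low regions. Anchoring on the coding start gave -0.25 at 1000 bp. Keeping only probes whose 60 bases occur once, an alternative chosen after seeing the data, gave -2.01 in centromere 2 and -1.48 in the mat3 gap, and the rDNA then had no probe.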
